A study of Mus musculus with 68 samples.

Results

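The 10 genes described here make up the negative limb and the output of the circadian clock, together with 1 of its activators: Per1, Per2, Per3, Dbp, Tef, Hlf, Nr1d1, Nr1d2, Ciart and Arntl. The rule that chose them is a list of names and uses no measured value, although the list was drawn up with earlier results of these data known. They were found by symbol among the 18088 genes of the deposited table; all 10 were present and all passed the filter on low values that left 17922 genes to test. Messenger RNA of prefrontal cortex was profiled in C57BL/6J mice aged 25 days. The mice were heterozygous for Adnp (labelled HT) or wild type (WT), Adnp being the gene of a chromatin-associated homeobox protein. Vehicle, fluoxetine (an antidepressant that blocks serotonin reuptake) or lithium (a mood stabiliser) reached the pups through the mother's milk from day 3 to day 24, about 3 weeks. Vehicle was given to 8 female and 8 male HT and to 8 female and 7 male WT mice. Fluoxetine was given to 5 of each sex and genotype, and lithium to 4 female and 5 male HT and to 5 female and 3 male WT mice. The labels do not name the Adnp allele, the dose, the litter or the hour of dissection, and do not say that each library is a separate animal, so p-values measure the spread between these 68 libraries, which may be technical.

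In the clock of mammalian cells, ARNTL (also called BMAL1) pairs with CLOCK or NPAS2, binds E-boxes and switches on the Per, Cry, Nr1d and Ciart genes. PER and CRY proteins, and CIART, then repress that pair, while NR1D1 and NR1D2 (REV-ERB alpha and beta) repress Arntl itself through ROR elements. DBP, TEF and HLF are PAR bZIP factors that carry the rhythm to output genes through D-boxes, and Per1 and Per2 are also induced by neuronal activity and by glucocorticoids. In the forebrain, as in other tissues, the transcripts of these genes rise and fall over the day, so a single sampling time catches each at 1 point of its cycle. The sources used here give neither the light cycle nor the hour of dissection, and their part in any difference below was not tested.

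The regulatory letters named above were searched for in the 250 bases before the RefSeq transcript starts on GRCm38.p6, on both strands. RefSeq windows were found for 9 of the 10 genes, in 12 windows. The E-box CACGTG was found in 3 genes (Per1, Tef and Ciart) and in 6.02% of all 32851 windows of that length. The D-box (TTATGTAA or TTATGCAA) was found in 2 genes, Per1 and Per3, and in 1.5% of all windows. The cyclic AMP response element TGACGTCA was found in Hlf alone, and in 1.55% of all windows, whereas the ROR element (TAGGTCA or TGGGTCA) was found in none of the 9 and in 5.38% of all windows. None of these motifs overlaps another in the windows printed here. The windows of 3 genes are printed because they hold the densest matches and because Per3 and Ciart carry much of what follows; capitals mark the motif, each is read 5′ to 3′ on the gene's strand, and a match describes letters and is not evidence of binding. Ciart lies at chr3:95882229-95882478 (minus strand) with 3 E-boxes that begin 116, 58 and 44 bases before the start. Per3 lies at chr4:151044666-151044915 (minus strand) with D-boxes at 205 and 158 bases, and the first of the 2 Per1 windows lies at chr11:69098699-69098948 (plus strand) with an E-box at 166 and a D-box at 24 bases.
Ciart: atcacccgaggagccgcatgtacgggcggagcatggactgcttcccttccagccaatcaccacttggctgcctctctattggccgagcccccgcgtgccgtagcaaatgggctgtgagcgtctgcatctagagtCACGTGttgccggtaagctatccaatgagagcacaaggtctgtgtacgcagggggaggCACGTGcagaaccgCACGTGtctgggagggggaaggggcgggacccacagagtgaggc
Per3: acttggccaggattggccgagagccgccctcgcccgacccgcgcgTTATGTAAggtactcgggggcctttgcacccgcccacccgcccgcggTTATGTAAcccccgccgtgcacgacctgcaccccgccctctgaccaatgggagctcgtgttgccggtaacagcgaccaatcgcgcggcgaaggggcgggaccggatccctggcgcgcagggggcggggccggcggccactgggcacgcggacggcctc
Per1: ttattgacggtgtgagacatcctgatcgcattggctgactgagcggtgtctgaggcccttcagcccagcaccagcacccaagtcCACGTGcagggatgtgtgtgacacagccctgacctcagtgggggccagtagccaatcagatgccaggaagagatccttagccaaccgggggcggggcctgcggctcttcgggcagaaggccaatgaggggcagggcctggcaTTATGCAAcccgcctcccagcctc

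Before the results, 3 properties of the series bear on every comparison. Adnp itself was higher, not lower, in the libraries labelled HT: its deposited values ran from 1492 to 2845 (median 2190, n = 35) against 1077 to 2290 (median 1815, n = 33) in WT, a log2 difference of 0.30 (SE 0.0507, adjusted p = 1.7e-05), so gene-level values of Adnp do not check the genotype labels. Pseudogene levels split the libraries into 3 sets that the labels do not name: set 1 holds 28 libraries (all 20 fluoxetine libraries and 8 of HT vehicle), set 2 holds 28 (all 17 lithium libraries, 6 of HT vehicle and 5 of WT vehicle) and set 3 holds 12 (10 of WT vehicle and 2 of HT vehicle). Fluoxetine can therefore be compared with vehicle within 1 set in HT only, and lithium within set 2 in both genotypes. Within WT vehicle, set 3 against set 2 differed in 42.4% of genes, with all 7 olfactory bulb markers higher (median log2 difference 2.76), 8 of 10 striatal markers lower (-1.11) and all 8 oligodendrocyte markers lower (-0.78); none of these lists has a marker at 0 in all libraries.

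Per unit of transcript length, Tef was the most abundant of the 10 and Arntl the least. Mean values over 68 libraries per kilobase of annotated exon were 1190 for Tef, 970 for Nr1d1, 716 for Hlf, 682 for Dbp, 535 for Per1, 516 for Nr1d2, 235 for Per2, 188 for Ciart, 154 for Per3 and 98.2 for Arntl. In this order Hlf and Dbp, Per1 and Nr1d2, Per2 and Ciart, and Ciart and Per3 differed by less than 1 SD of the more variable of the pair. Dbp shares 539 bp of exon (18%) with Sphk2 on the other strand and Nr1d1 shares 263 bp (8.55%) with Thra. The sources used here do not say whether counting used strand, so reads of these overlaps cannot be assigned with certainty.

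The genes differed in how steady they were from library to library. Per1 spanned a 2.48-fold range over all libraries (1854 to 4596), Per2 a 3.61-fold range (608 to 2196) and Ciart a 3.00-fold range (209 to 628). Nr1d2 ran only from 2473 to 3283 and Tef from 7673 to 11010. Within libraries of the same group and set, the SD on the log2 scale was 0.25 for both Per1 and Per2, and 0.21 for Ciart. Among the 8737 genes of mean 400 to 10000 these stood at the 96.5th, 96.6th and 94.6th percentile, and the median gene had 0.10. Tef had 0.062, at the 4.36th percentile. So Per1, Per2 and Ciart were among the most variable genes of that range and Tef among the least. Ciart (mean 425) lies near the bottom of the range and Tef (mean 9361) near its top, and genes were not matched more closely in abundance.

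**Figure D1:**
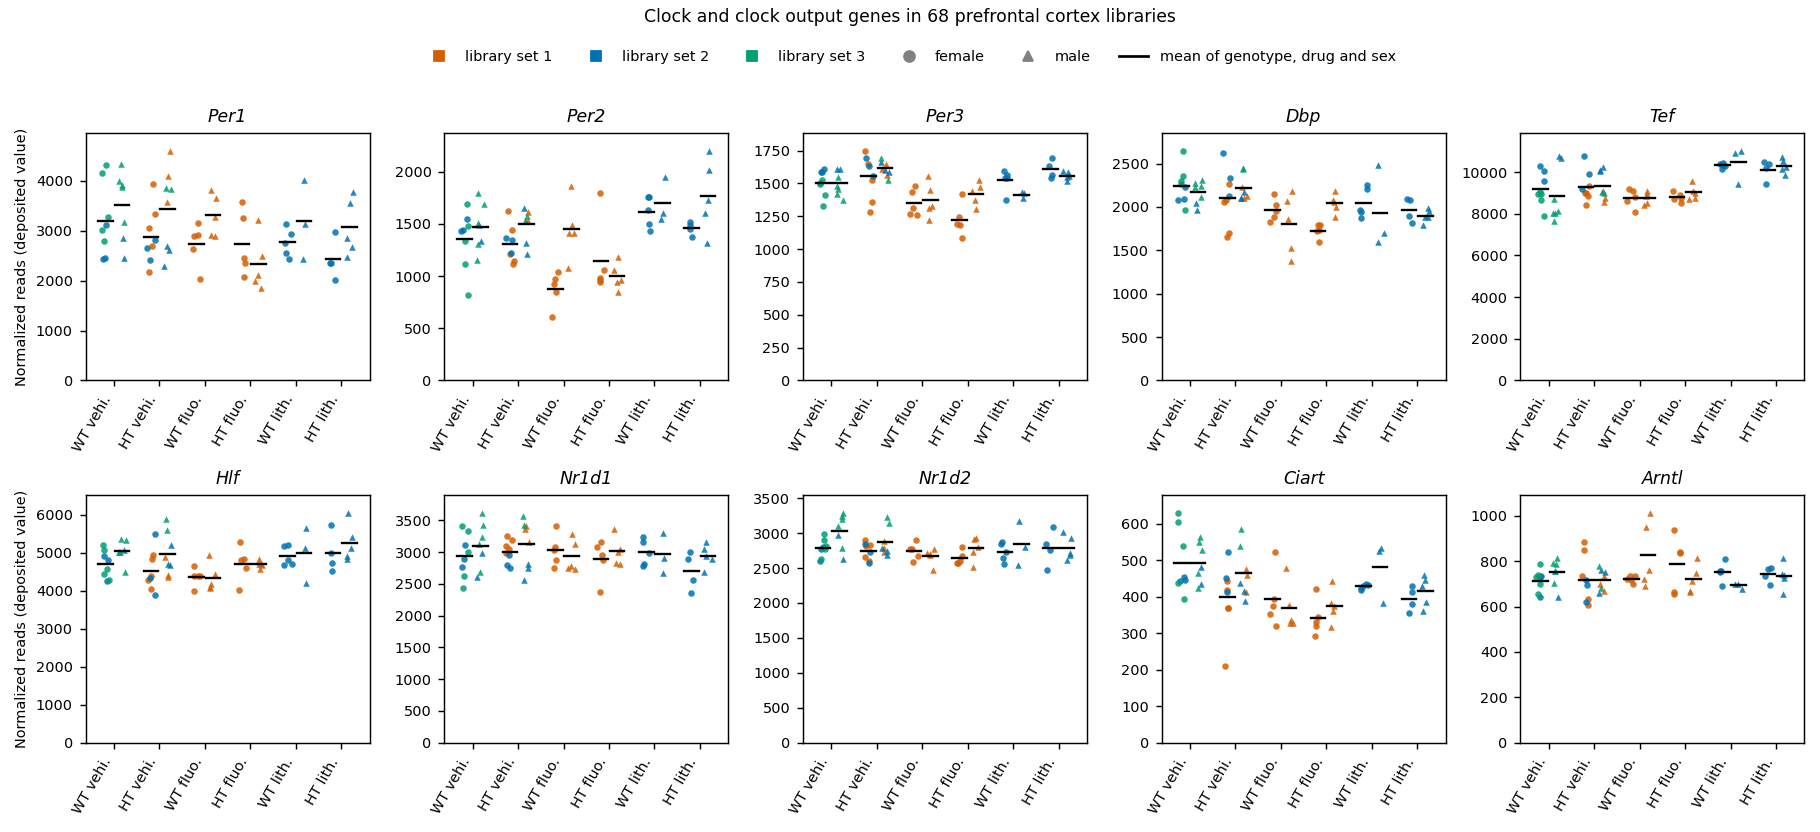
Deposited value (reads divided by the library's size factor, vertical axis from 0) of each of the 10 genes in all 68 libraries, by genotype and drug; colour gives the library set, circles are females and triangles males, and lines are means of each genotype, drug and sex. Per3 sits lower under fluoxetine in both genotypes, and Tef follows the library set, with set 2 libraries highest.

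Genotype was compared first under vehicle, the contrast that asks what heterozygosity for Adnp does to cortex without either drug. None of the 10 genes differed, where 15.0% of all genes did (limma, 2680 genes). Ciart, a repressor of the ARNTL pair, came nearest: its values ran from 209 to 585 (median 427) in HT and from 394 to 628 (median 465) in WT. Most of both ranges overlapped, with 1 HT library far below all others. The log2 difference, HT minus WT, was -0.21 (SE 0.081, adjusted p = 0.070). It passed the threshold when HT vehicle male 1 (-0.23, adjusted p = 0.036), HT vehicle male 2 (-0.22, 0.046), HT vehicle female 7 (-0.24, 0.038) or WT vehicle male 7 (-0.22, 0.048) was left out, and was -0.05 (adjusted p = 1) within set 2, where 0.536% of genes passed. Over all 68 removals of 1 library the Ciart difference ran from -0.24 to -0.14, with an adjusted p (limma) of 0.036 to 0.149. The -0.14 came without HT vehicle female 5, the library at 209. At an unadjusted p under 0.05 limma held 2 of the 10, Ciart and Per3, and neither edgeR nor DESeq2 called any. Under fluoxetine no member differed by genotype (background 1.98%), Per1 being furthest at -0.27 (adjusted p = 0.36). Under lithium again none did (background 2.51%), with Ciart at -0.16 and Per3 at 0.11, and averaged over drugs none did either (background 7.43%). In these 3 comparisons limma held 1, 1 and 2 of the 10 at an unadjusted p under 0.05, and edgeR and DESeq2 called 0 in each.

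Under fluoxetine in HT mice 2 of the 10 genes fell, both of them Period repressors, and none rose; the background was 1.22% of genes in either direction and 0.809% lower. Per3, the Period gene least tied to the core loop, had deposited values of 1087 to 1528 under fluoxetine (median 1338, n = 10) and 1283 to 1746 under vehicle (median 1605, n = 16). The groups overlapped between 1283 and 1528, and 4 of the 5 fluoxetine females, at 1087, 1181, 1188 and 1241, lay below every vehicle library. Per3 fell by 0.26 on the log2 scale (SE 0.041, 95% interval -0.35 to -0.18, adjusted p = 3.8e-04), to 0.833 times the vehicle level. Within set 1, which holds all fluoxetine libraries and 8 vehicle ones, it fell by 0.24 (SE 0.047, adjusted p = 0.015, background 0.167%), so the size was nearly the same without the other sets.

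Per2, the Period gene on which the core loop most depends, ran from 843 to 1791 under fluoxetine (median 972) and from 1115 to 1656 under vehicle (median 1403). All fluoxetine libraries but 1 were at or below 1186; HT fluoxetine female 4, at 1791, stood above every vehicle library. Per2 fell by 0.41 (SE 0.097, 95% interval -0.60 to -0.21, adjusted p = 0.019). The call was lost without HT fluoxetine male 3 (-0.38, adjusted p = 0.050, just over the threshold) or female 3 (-0.38, 0.051), and within set 1 the difference was -0.44 with an adjusted p of 0.106.

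The other genes in HT stayed short of the threshold. Per1 was at -0.32 (adjusted p = 0.17), Ciart at -0.25 (0.18) and Dbp at -0.19 (0.093), whereas Tef, Hlf, Nr1d1 and Nr1d2 lay between -0.06 and -0.01 and Arntl was at 0.07 (0.65). Dbp passed without HT vehicle female 4 (adjusted p = 0.030) or female 5 (0.043) and with DESeq2 (0.043, where 2.53% of genes passed), and Ciart passed without HT vehicle female 5 (-0.31, 0.022). The median of the 10 was -0.13, against 0.00 over all genes tested, and 9 of 10 differences were negative, against 48.5% of all genes. Within set 1, 7 of 10 were negative, against 49.1% of all genes, with a median of -0.12. In females alone Per3 fell by 0.34 (adjusted p = 0.0026, background 0.117%), and by 0.30 within set 1 (0.040, background 0.0335%). In males limma called 0 genes of the whole table (0.0%, 1221 at an unadjusted p under 0.05, 4 of the 10 among them), and it called 0 for the difference between the sexes (799 at an unadjusted p under 0.05).

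Under fluoxetine in WT mice 5 of the 10 genes fell and none rose, against a background of 5.43% of genes in either direction and 2.29% lower. The 5 were Per2 and Per3, the repressor Ciart, and the PAR bZIP outputs Dbp and Hlf. Ciart had values of 318 to 523 under fluoxetine (median 363) and 394 to 628 under vehicle (median 465). Only WT fluoxetine female 5, at 523, and male 1, at 478, lay above the lowest vehicle library. Ciart fell by 0.38 (SE 0.092, 95% interval -0.56 to -0.19, adjusted p = 0.014), to 0.771 times the vehicle level, the largest log2 difference of the 10.

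Dbp, whose protein drives D-box genes, ran from 1379 to 2180 under fluoxetine (median 1916) and from 1961 to 2644 under vehicle (median 2234). The ranges overlapped above 1961, and the lowest 2 values belonged to males 4 and 5, at 1379 and 1522. Dbp fell by 0.24 (SE 0.061, adjusted p = 0.017), and without WT fluoxetine male 4 by 0.19 (0.060), which ended the call.

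Per3 ran from 1220 to 1559 (median 1319) against 1331 to 1612 (median 1505). It fell by 0.15 (SE 0.042, adjusted p = 0.030), a call lost when WT fluoxetine female 1, 2 or 3 or male 3, 4 or 5 was left out (-0.14 to -0.12, adjusted p 0.051 to 0.087). Per2 ran from 608 to 1861 (median 1059) against 819 to 1797 (median 1440), so that the fluoxetine libraries enclosed the vehicle range on both sides. It fell by 0.32 (SE 0.098, adjusted p = 0.040); the call was lost in 13 of 68 removals of 1 library, namely WT fluoxetine females 1, 2, 3 and 5 and males 1 to 4, WT vehicle females 4 and 5 and males 2 to 4 (-0.34 to -0.26, adjusted p 0.052 to 0.102). Hlf ran from 3991 to 4950 (median 4381) against 4255 to 5371 (median 5014) and fell by 0.16 (SE 0.051, adjusted p = 0.049), a call lost in 42 of the 68 removals, with an adjusted p of up to 0.093. Of these 5 genes Ciart alone kept its call whichever single library was left out.

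By sex, mean Per2 in WT lay apart between the drugs in females and close together in males, but the difference between the sexes itself did not pass. Female values were 608, 844, 923, 970 and 1040 under fluoxetine (877 ± 167, SD, n = 5) and 819 to 1694 under vehicle (1358 ± 274, n = 8), while males had 1451 ± 279 (n = 5) and 1467 ± 224 (n = 7). The log2 difference was -0.62 in females (SE 0.137, adjusted p = 0.051) and -0.02 in males (0.94). The difference between the sexes was 0.60 (male minus female, SE 0.197, adjusted p = 0.32), and this test passed for none of the 10 (background 0.0%, with 1934 genes and 2 of the 10 at an unadjusted p under 0.05 in limma).

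Taken alone, WT females had none of the 10 called (background 0.0335%, with 4 of the 10 at an unadjusted p under 0.05 in limma). In WT males Dbp fell by 0.29 (adjusted p = 0.047) and Nr1d2 by 0.18 (0.044), in a background of 3.73%, and Ciart was at -0.42 (0.053). Ciart in females was at -0.33 (0.32), and Per3 was at -0.16 in females (0.28) and -0.13 in males (0.17).

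Arntl, the activator that this loop represses, was at 0.07 in WT (adjusted p = 0.48), Nr1d2 at -0.10 (0.086), Per1 at -0.14 (0.50). The median of the 10 was -0.14 against 0.00 over all genes tested, and 9 of 10 were negative against 50.9% of all genes. Nr1d2 passed without WT vehicle male 6 (-0.12, 0.027).

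No library set holds both fluoxetine and vehicle of WT, so drug and set cannot be told apart there, and the answer moved with the vehicle set used. Against the 5 vehicle libraries of set 2 the genes called were Per3 (-0.24, adjusted p = 0.0057) and Tef (-0.24, 4e-05), with a background of 5.63%. Against the 10 of set 3 they were Per1 (-0.29, 0.037), Per2 (-0.29, 0.042), Dbp (-0.28, 4.1e-04), Hlf (-0.16, 0.016), Nr1d2 (-0.13, 0.0045) and Ciart (-0.43, 2.7e-04), with a background of 29.9%, while Per3 was at -0.10 (0.077). The 5 genes called over all libraries were negative against both vehicle sets, whereas Per1 changed sign (0.17 against set 2) and so did Tef (0.06 against set 3). Of the 10 genes, 7 were negative against set 2 (49.1% of all genes) and 8 against set 3 (52.2%).

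Averaged over genotypes, Per2 fell by 0.36 under fluoxetine (adjusted p = 6.0e-04), Per3 by 0.20 (7.9e-06), Dbp by 0.22 (8.7e-04) and Ciart by 0.31 (0.0014), in a background of 7.41% (3.38% lower). The WT side of this average has no library set with both fluoxetine and vehicle, so drug and set are mixed in it. In HT alone limma called neither Dbp nor Ciart. DESeq2 called 6 of the 10 in the average over genotypes (background 10.1%) and edgeR 4 (7.25%). Per1 passed without HT fluoxetine female 4 or male 5, HT vehicle male 6 or WT vehicle male 7 (-0.26 to -0.25, adjusted p 0.040 to 0.048), and Nr1d2 passed without HT fluoxetine female 2, WT fluoxetine female 4, WT vehicle female 6 or WT vehicle male 3 or 6 (-0.08, adjusted p 0.025 to 0.049). The difference of the fluoxetine effect between genotypes was tested directly and passed for none of the 10 (background 0.0%): it was -0.12 for Per3 (95% interval -0.24 to -0.002, adjusted p = 0.40) and -0.08 for Per2 (95% interval -0.36 to 0.19, 0.84). Across the table this test called 0 genes in limma (2187 at an unadjusted p under 0.05), 0 in edgeR and 22 in DESeq2. The contrasts in HT and WT use separate vehicle libraries, but those of fluoxetine and lithium within a genotype share theirs.

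**Figure D2:**
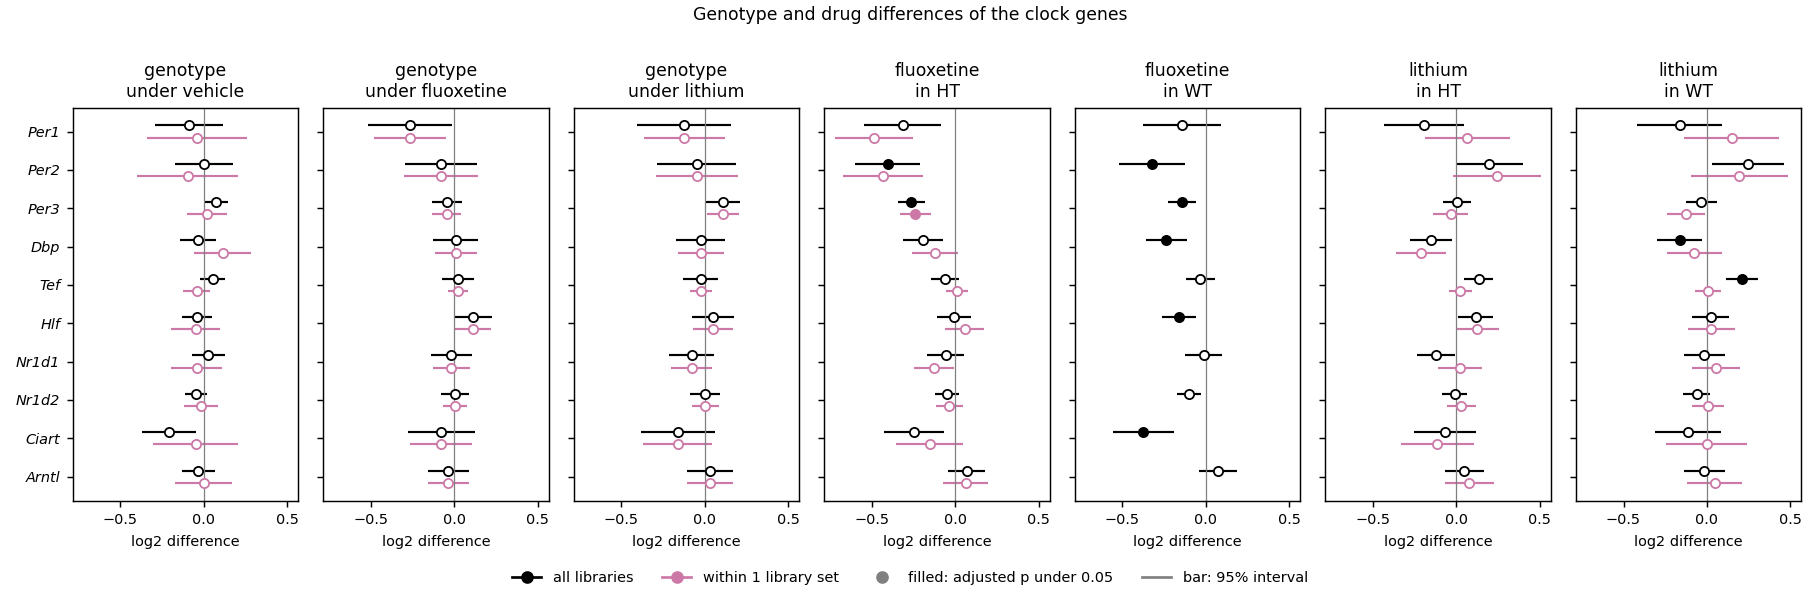
Log2 difference of each of the 10 genes in 7 comparisons with its 95% interval, in black over all libraries and in pink within 1 library set where that can be had; filled points have an adjusted p under 0.05. Over all libraries 9 of 10 points lie below 0 under fluoxetine in each genotype, and within set 1 in HT 7 of 10 do. The positive difference of Tef under lithium in WT is 0.21 over all libraries and 0.01 within set 2.

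Some cell type markers also differed between fluoxetine and vehicle. In HT 1.22% of all genes passed, 0.809% of them in the lower direction. In HT, 4 of 10 endothelial markers fell (median -0.18; Tie1 and Pecam1, a receptor kinase and an adhesion molecule of the vessel wall, by 0.33 and 0.24) and 3 of 8 mural cell markers fell (median -0.18; Myh11, a smooth muscle myosin, by 0.38). Within set 1 these counts were 1 and 0, where 0.167% of all genes passed. A list of 6 markers of oligodendrocyte precursors and newly forming oligodendrocytes held Pdgfra, Cspg4, Vcan, Enpp6, Gpr17 and Bcas1. Of these 1 fell, Enpp6 by 0.42 (median of the list -0.25). For astrocyte markers 0 of 8 passed (median -0.11), and for oligodendrocyte markers 0 of 8 (median -0.28). Summed precursor and newly forming oligodendrocyte markers were 7231 to 8818 under fluoxetine (median 8360) and 7350 to 11754 under vehicle (median 9797). Summed astrocyte markers were 116086 to 143144 (median 124346) and 115928 to 162414 (median 138511). Summed endothelial markers were 7464 to 10306 under fluoxetine and 8149 to 10842 under vehicle, and summed mural markers 6349 to 8742 and 6823 to 9058; no marker of these lists was at 0 in all libraries. In WT 1 endothelial and 3 mural markers fell, where 2.29% of all genes did. No library set holds both fluoxetine and vehicle of WT, so drug and set are mixed in these WT counts. In bulk tissue fewer cells of a type and less RNA per cell cannot be told apart, and the part of these shifts in the clock gene differences was not tested. All 7 olfactory bulb markers had positive differences in HT (median 1.0, none called), and 12 of 12 activity-induced genes, which include Fos and Arc, stayed uncalled in both genotypes.

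Most other clock genes were not called. Of 16 other clock genes none was called under fluoxetine in HT (median 0.00): Cry1 and Cry2, the partners of PER, were both at -0.08 (adjusted p = 0.66 and 0.45), Clock at 0.04 (0.72) and Nfil3, the repressor that competes with DBP at D-boxes, at 0.18 (0.67). In WT 1 of 16 was called, Csnk1d, a kinase of PER proteins, which rose by 0.14 (0.028). That count is near the share of all genes. For the counts given here that share was 1.22% in HT and 5.43% in WT (2.29% lower). Drug and library set are mixed in the WT counts. Of 8 clock-controlled output genes none passed in HT and 2 fell in WT, the deubiquitinase gene Usp2 by 0.17 (0.017) and the kinase gene Gsk3b by 0.14 (0.039). Glucocorticoid-induced genes, a class to which Per1 also belongs, had 0 of 13 called in HT and 2 lower in WT, Klf9 by 0.17 and Hif3a by 0.44.

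Lithium was the second drug. In HT none of the 10 genes was called (background 1.52%), the nearest being Tef at 0.13 (adjusted p = 0.099); limma held 4 of the 10 at an unadjusted p under 0.05, and edgeR and DESeq2 called 0. In WT 2 were, against a background of 36.1%, a share below that of all genes. Tef had values of 9443 to 11010 under lithium (median 10364) and 7673 to 10782 under vehicle (median 8931). Tef rose by 0.21 (SE 0.047, adjusted p = 4.8e-04), but its vehicle values divided by set: 9574 to 10782 in the 5 libraries of set 2 and 7673 to 9040 in the 10 of set 3, with no overlap. Within set 2 the lithium difference of Tef was 0.01 (0.98), and none of the 10 genes passed there (background 0.664%).

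Dbp fell by 0.16 under lithium in WT at an adjusted p of 0.05, just under the threshold, a call lost in 49 of 68 removals of 1 library (adjusted p up to 0.275), with edgeR (0.085) and with DESeq2 (0.076); within set 2 it was at -0.07 (0.79). Per2, at 0.25 (0.065), passed without HT fluoxetine female 4, WT vehicle female 5 or WT vehicle male 3 (0.25 to 0.27, adjusted p 0.043 to 0.044). Averaged over genotypes Per2 rose by 0.22 (0.016), Tef rose by 0.17 (6.2e-05) and Dbp fell by 0.16 (0.0059), in a background of 35.9%, and Hlf passed without WT lithium male 3 (0.10, 0.043). Within set 2 none of the 3 passed, with Per2 at 0.22 (0.29), Tef at 0.02 and Dbp at -0.14 (0.19), in a background of 1.8%. Cell markers and hormone-induced genes were counted between the same groups. Of all genes, 36.1% passed under lithium in WT. In WT under lithium 9 of 13 glucocorticoid-induced genes rose (summed level 19801 to 25363, median 20775, against 15254 to 21438, median 17717, under vehicle), as did 3 of 8 oligodendrocyte markers (108915 to 212925, median 181651, against 86970 to 235510, median 129866), and 3 of 8 astrocyte markers rose and 1 fell (145624 to 181868, median 164995, against 124095 to 172241, median 148127). Oligodendrocyte markers, at 3 of 8, were near the share of all genes. These WT counts use all libraries, where every lithium library is of set 2 and most vehicle libraries are of set 3. In WT vehicle, oligodendrocyte markers and most glucocorticoid-induced genes were lower in set 3 than in set 2. Drug and set are thus mixed in these counts. In HT none of 10 striatal markers passed, with a summed level of 8272 to 22806 (median 13191) under lithium and 5679 to 24467 (median 7592) under vehicle. No marker of these lists was at 0 in all libraries, and their part in the differences of Tef, Dbp and Per2 was not tested.

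The lithium effect differed between genotypes for none of the 10 (background 2.8%), with none at an unadjusted p under 0.05 in limma and none called by edgeR or DESeq2. Among the other clock genes 3 of 16 rose and 4 fell under lithium in WT, where 36.1% of all genes passed. Within set 2 none did, where 0.664% of all genes passed.

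Between the library sets of vehicle WT mice 3 of the 10 genes differed, a smaller share than the 42.4% of all genes. Set 3 minus set 2 was 0.46 for Per1 (adjusted p = 0.0049), -0.14 for Per3 (0.032) and -0.30 for Tef (5.3e-09). All 12 activity-induced immediate early genes rose with Per1 (median 0.98), and 10 of 13 glucocorticoid-induced genes fell (median -0.49). Per1 means were 3687 ± 570 (SD, n = 10) in set 3 and 2665 ± 315 (n = 5) in set 2. In HT vehicle, set 1 minus set 2, Tef was lower by 0.18 (0.0034, background 1.62%), and Per1 was at 0.43 (0.073).

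The drugs were also set against each other, where drug and set cannot be told apart. Fluoxetine minus lithium was -0.59 for Per2 (adjusted p = 2.7e-07), -0.19 for Per3 (3.1e-05), -0.22 for Tef (4.3e-06), -0.15 for Hlf (0.0049) and -0.22 for Ciart (0.022), in a background of 29.2% (15.1% lower). The Ciart call was lost without WT lithium male 1 or 2 (-0.20, 0.051 to 0.052). Per2 under lithium ran from 1313 to 2196 in HT and from 1434 to 1952 in WT, with the fluoxetine libraries mostly below.

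Sex by itself moved none of the 10 genes (background 0.1%, 18 genes, with 1107 at an unadjusted p under 0.05 in limma and 19 called by edgeR; 3 of the 10 at an unadjusted p, 0 by edgeR or DESeq2); Per2 was at 0.20 and Per1 at 0.16, male minus female. Per2 did differ by sex in the genotype effect under fluoxetine. Its values in HT females were 941, 964, 980, 1054 and 1791, and in WT females 608, 844, 923, 970 and 1040. In HT males they were 843, 945, 960, 1056 and 1186, and in WT males 1078, 1409, 1413, 1492 and 1861. So 4 of 5 WT males lay above every HT male. The females overlapped only between 941 and 1040. HT females at 1054 and 1791 lay above every WT female, and WT females at 608, 844 and 923 below every HT female.

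The HT minus WT difference of Per2 under fluoxetine was 0.36 in females (adjusted p = 0.23) and -0.53 in males (0.08). Male minus female, it differed by -0.89 (SE 0.215, adjusted p = 0.032, background 0.485%), and by the same -0.89 within set 1 (0.028, background 1.29%), where all of these libraries lie. Without HT fluoxetine female 4 it was -0.72 (0.129). The call was also lost without HT fluoxetine male 1, 3 or 4, WT fluoxetine female 1 or 3, or WT fluoxetine male 2, 4 or 5 (-0.89 to -0.76, adjusted p 0.053 to 0.106).

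Because repressors and activator act on each other, the 10 genes were also followed from library to library. Each log2 value was taken as its deviation from the mean of the libraries of the same group and set, and p-values came from 100000 permutations within those cells, two-sided. Against Arntl, 9 relations were computed. Per3 was lower where Arntl was higher (r = -0.52, p = 0.00341, adjusted 0.021; rho = -0.41, p = 0.0051, adjusted 0.023; n = 68), and Hlf was higher (r = 0.38 and rho = 0.39, adjusted permutation p 0.021 and 0.023). For Dbp r was -0.41 and rho -0.22, with adjusted permutation p of 0.036 and 0.24. The other 6 ran from -0.29 (Ciart) to 0.25 (Per2) and did not pass.

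The relations of Per3 and Dbp to Arntl rest in part on 2 libraries, that of Hlf less so. Without WT fluoxetine male 4 and HT vehicle female 2, the farthest from 0 in Arntl, r was -0.41 for Per3 (adjusted permutation p = 0.083), -0.26 for Dbp (0.17) and 0.39 for Hlf (0.053). So r for Hlf kept its size while its adjusted p passed the threshold no longer. WT fluoxetine male 4 has at once the highest Arntl value of all libraries (1011) and the lowest Dbp (1379). By set, r was -0.64 (Per3), -0.64 (Dbp) and 0.61 (Hlf) in set 1, each with an adjusted permutation p of 0.031, but -0.15, 0.038 and 0.23 in set 2 and -0.19, -0.31 and 0.094 in set 3.

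**Figure D3:**
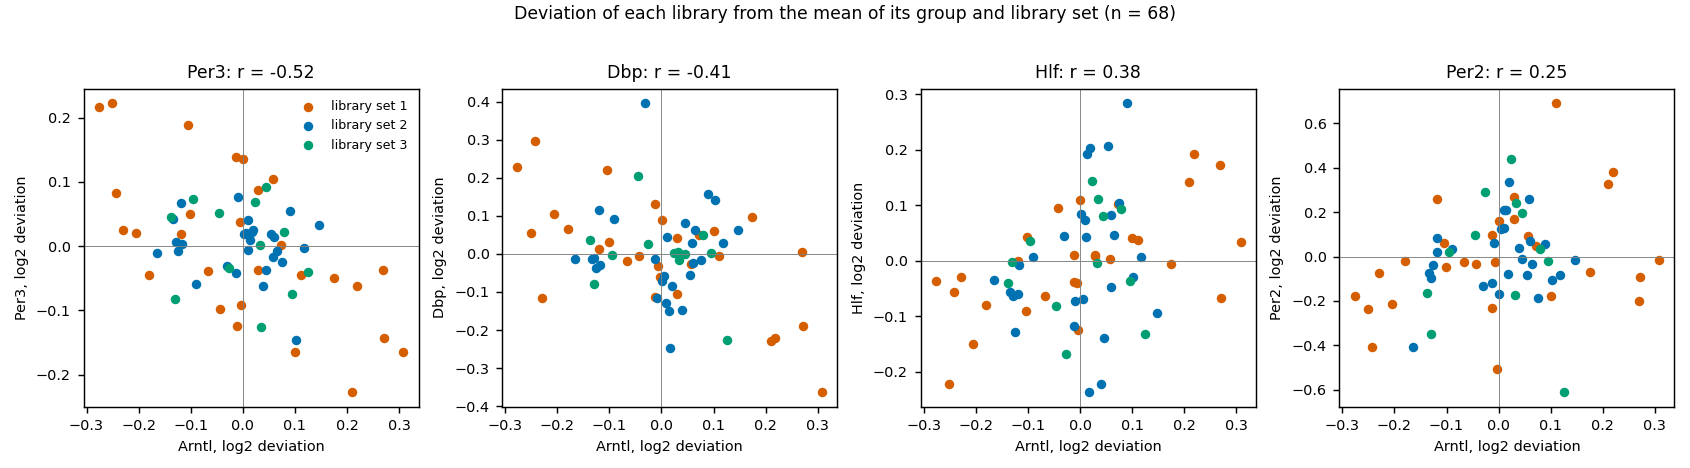
Deviation of Per3, Dbp, Hlf and Per2 (log2, vertical) against that of Arntl (log2, horizontal) from the mean of libraries of the same group and set, 1 point per library, n = 68. The 2 libraries farthest from 0 in Arntl lie at the ends of the falling clouds of Per3 (r = -0.52) and Dbp (r = -0.41).

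Among all 45 pairs of the 10 genes, 17 had an adjusted permutation p under 0.05, of which 15 were positive and 2, Arntl with Per3 and with Dbp, were negative; 15 of the 17 had the same sign in all 3 sets. Values like those with Arntl also occur among other genes, to a differing degree. Of 12514 genes compared with Arntl, 378 had a lower r than Dbp and 85 a lower r than Per3, at the 0.679th percentile. Hlf stood at the 93.2nd percentile. The pairs of Tef with Hlf and of Per1 with Per2 were not set against other genes. Tef and Hlf, both PAR bZIP factors, went together most closely (r = 0.72 and rho = 0.69, adjusted permutation p = 4.5e-04), with r of 0.68 without the 2 libraries farthest in Tef and 0.63, 0.84 and 0.54 in sets 1 to 3. Per1 and Per2 followed (r = 0.60 and rho = 0.60, adjusted 6e-04 by permutation; 0.49, 0.74 and 0.81 by set). Nr1d1 and Ciart, both E-box targets of the ARNTL pair, had r = 0.49 and rho = 0.51, and 0.42, 0.25 and 0.90 by set. Per3 with Per1 and with Per2 had r of only 0.09 and 0.04, so the third Period gene did not follow the other 2 from library to library.

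**Figure D4:**
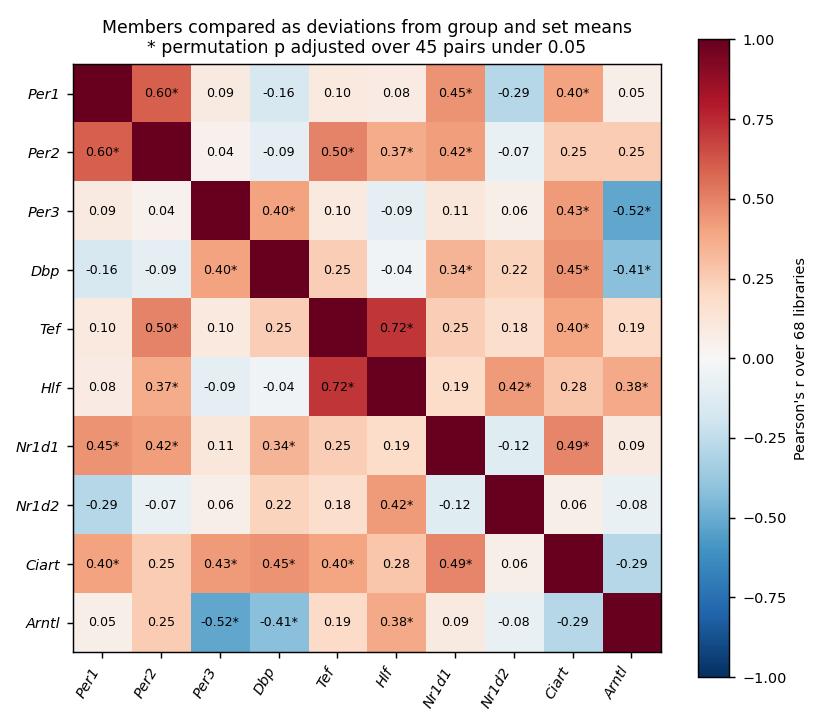
Pearson's r between each pair of the 10 genes over 68 libraries, as deviations from group and set means; an asterisk marks a permutation p under 0.05 after adjustment over 45 pairs. Tef with Hlf (0.72) and Per1 with Per2 (0.60) are the strongest positive pairs, and Arntl with Per3 (-0.52) the strongest negative one.

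Outside the 10, the genes most like Per3 by the same measure, among 12505 genes of mean at least 100, were Lss (r = 0.71), a sterol synthesis enzyme, Eogt (0.68) and Apc (0.68). For Dbp they were Abhd11 (0.70), Cspg5 (0.66) and Rps2 (0.63), and for Arntl Hspa8 (0.67), a heat shock cognate chaperone, Abcg1 (0.67) and Fam234b (0.66). These are the highest of many values over the same 68 libraries and are given as a description.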

How the data were processed

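The 68 libraries were made with a kit for stranded polyadenylated RNA, per the labels' protocols. The authors deposited 1 table of signal values, in which every count of a library had been divided by the size factor of that library; the tools were Salmon 0.11.2, R 3.6.0 and DESeq2 1.19.11 and the build GRCm38, per the submitters' processing notes, without their roles. Whole reads were recovered from the steps of the values (100% whole within 0.01), giving 22.4M to 37.5M reads per library (median 30.7M), with 1.90 to 3.33% in the most abundant gene. Symbols, positions and exon lengths came from GENCODE vM21 on GRCm38 (18077 ids matched), 1-based.

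Groups came from the titles. limma 3.58.1 in R 4.3.3 was fitted to log2(value + 1), with variance trend and robust shrinkage, for all 12 groups of genotype, drug and sex, over the 17922 genes of mean at least 5 (166 were left out); an effect is the mean of both sexes, p-values were Benjamini-Hochberg adjusted over all genes tested, and a gene passed under 0.05. A pseudocount of 1 understates changes of low genes. Adjusted p-values given without a tool are limma's. A second fit with group by library set gave the values within 1 set; sets came from clustering the libraries on 361 pseudogenes (average linkage, correlation distance). Alternatives were edgeR 4.0.16 and DESeq2 1.42.0 on recovered reads, a pseudocount of 8, no filter, TMM scaling, a replicate block and leaving out each library. The limma fit was tested on simulated data. No 2 of 174 pairs of libraries within a group held identical values.

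Named were all 10 genes in every comparison, at most 4 members with the smallest p of each other list, and the 3 genes most like Per3, Dbp and Arntl. The 10 genes and the 16 lists were chosen with earlier results of these data known. The averages over genotypes or drugs, the contrast of drugs and the sex difference under fluoxetine were added after the data were seen.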

Additional observations from a re-analysis of the deposited data

Results flagged for a closer look

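In 110 combinations of a gene and a group of 4 to 8 libraries, 4 held a library far from the others; chance alone marks about 1 in 20. HT fluoxetine female 4 had a Per2 value of 1791, against 941 to 1054 in the other 4 females of that group, and the same library bears on the Per2 results under fluoxetine given above. WT lithium female 5 had a Per3 value of 1373, against 1541 to 1592. WT vehicle male 3 had an Hlf value of 4483, against 5014 to 5371. WT fluoxetine male 4 had an Nr1d2 value of 2477, against 2691 to 2767, and is also the library with the highest Arntl and the lowest Dbp of all 68.

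The effect of genotype on Per2 under fluoxetine differed between the sexes by -0.89 (log2, male minus female), by a limma test of the difference itself; without HT fluoxetine female 4 it was -0.72 (adjusted p = 0.129).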

How the results depend on the processing

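No alternative turned the direction of a called difference of a single gene. Within 1 library set the genes called changed from 2680 to 96 (genotype under vehicle), from 450 to 805 (genotype under lithium), from 1332 to 833 (genotype over all drugs), from 218 to 30 (fluoxetine in HT), from 273 to 29 (lithium in HT), from 6478 to 119 (lithium in WT), from 6433 to 322 (lithium in both), from 502 to 0 (lithium effect, HT minus WT) and from 87 to 232 (genotype under fluoxetine, male minus female). Of the 10 genes, those called went from 2 to 1 (fluoxetine in HT), from 2 to 0 (lithium in WT) and from 3 to 0 (lithium in both). Fluoxetine in WT called 974 genes, 5351 against set 3 alone, and 5 of the 10 went to 2 against set 2 alone. The cause of these changes was not tested. The fit by set takes its spread from all 68 libraries, in 17 cells of group and set. Its comparisons within a set hold fewer libraries, except those of genotype under lithium and under fluoxetine, whose libraries all lie in 1 set.

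DESeq2 called 374 genes (fluoxetine in HT), 449 (lithium in HT), 22 (fluoxetine effect, HT minus WT, 0 in limma), 1040 (lithium effect, HT minus WT) and 172 (genotype under fluoxetine, male minus female). For lithium in WT 1 of the 10 was called, not 2, with edgeR, DESeq2, no filter and TMM scaling.

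Replicate numbers did not pair the libraries: 19 of 69 same-number pairs correlated above 0.1 (r -0.24 to 0.51), and 12 libraries matched their own number best. In every vehicle group the libraries numbered 6 and above are the set 2 libraries, and those numbered 1 to 5 belong to set 1 or 3. No fluoxetine or lithium group has a number above 5, so in the drug contrasts the block is tied to library set. With the replicate block the genes called were 398 (fluoxetine in HT), 4003 (fluoxetine in WT), 3746 (lithium in HT), 8 (fluoxetine effect, HT minus WT), 1150 (lithium effect, HT minus WT), 4105 (fluoxetine in both) and 176 (genotype under fluoxetine, male minus female); of the 10, 3 were called for lithium in HT, 5 for lithium in WT and 6 for lithium in both, where 20.9%, 49.4% and 52.3% of all genes passed.

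Leaving out 1 library at a time gave 1730 to 4155 genes (genotype under vehicle; 0 to 1 of the 10), 170 to 594 (genotype under lithium), 111 to 432 (fluoxetine in HT; 1 to 4), 338 to 1969 (fluoxetine in WT; 1 to 6), 61 to 379 (lithium in HT), 0 to 8 (fluoxetine effect, HT minus WT), 0 to 1492 (lithium effect, HT minus WT) and 28 to 207 (genotype under fluoxetine, male minus female; 0 to 1); lithium in WT kept 1 to 2 of the 10.

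The relations with Arntl changed with the libraries used. With deviations from the group mean alone, r for Dbp was -0.37. Without the 2 farthest libraries r was -0.26 (Dbp), -0.41 (Per3) and 0.39 (Hlf). In set 2 r was 0.038 for Dbp, the sign turned, -0.15 for Per3 and 0.23 for Hlf, and in set 3 it was -0.31, -0.19 and 0.094.

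Depth was not the limit for these genes: the lowest recovered count of any of the 10 in any library was 191 reads, of Ciart. Precision is set by the spread between libraries and by the groups of 3 to 8 libraries of 1 sex.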
